A study of Mus musculus with 2 samples.

Results

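The genes described here were 10 markers of the specific granule and of immature neutrophils: Camp, Ngp, Ltf, Lcn2, Chil3, Cd177, Olfm4, Ly6g, Itgb2l and Serpinb1a. They were chosen by symbol, and all 10 were found among the 32285 genes of the deposited tables. The data were 2 droplet single-cell RNA libraries of blood neutrophils, 1 from wild-type (WT) mice and 1 from APP/PS1 mice, which carry human transgenes for mutant amyloid precursor protein and presenilin 1 and deposit amyloid in the brain. All mice were female and 7 months old, none was treated, and neutrophils were enriched with a magnetic kit for mouse neutrophils. Cells of 3 mice of a genotype were pooled before each library was made. Genotype, library and the individual mice therefore cannot be told apart, no replicate error could be had, and no test or p-value is given.

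Counts were of unique molecular identifiers (UMIs), each standing for 1 captured RNA molecule. The WT library held 17123 cells and 92458623 UMIs and the APP/PS1 library 17645 cells and 84870864 UMIs. Cells were kept if their genes and UMIs lay between the 5th and 95th percentile of their library and at most 10% of UMIs were mitochondrial, which left 14564 and 15208 cells. Neutrophils were the kept cells in which S100a8 and S100a9, 2 abundant calcium-binding proteins of neutrophil cytoplasm, made up at least 5% of UMIs, which gave 7559 WT and 8368 APP/PS1 neutrophils. Most other kept cells were monocyte-, dendritic-cell-, NK-, T-, B-, plasma-, basophil- and erythroid-like, so enrichment was partial. The rest were 538 WT and 546 APP/PS1 cells of unnamed or mixed clusters, and 660 and 1614 cells of neutrophil clusters that fell below the gate. Of the gated neutrophils, 632 in WT (8.36%) and 389 in APP/PS1 (4.65%) lay outside the clusters counted as neutrophil clusters. Some of the neutrophil clusters were led by platelet or interferon response genes. The libraries shared 83 cell barcodes, 63 of them kept in both. Levels are UMIs of a gene summed over a group of cells per 1000000 UMIs of those cells (CPM). Every interval is an exact 95% interval and covers counting error only.

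Neutrophils make their granules in a fixed order while they mature in the bone marrow. Azurophil granules are filled first, at the promyelocyte stage, specific granules next, at the myelocyte and metamyelocyte stages, and gelatinase granules last. Transcripts for specific granule proteins are switched off before the cell enters the blood, so circulating neutrophils carry the proteins but normally little of the RNA. Camp encodes the antimicrobial peptide precursor cathelicidin, Ngp a cystatin-related granule protein, and Ltf the iron-binding protein lactoferrin. Lcn2 encodes lipocalin 2, which binds bacterial siderophores, Chil3 a chitinase-like lectin also known as Ym1, and Olfm4 olfactomedin 4, which only a subset of neutrophils contains. Cd177 and Ly6g encode lipid-anchored surface proteins, Itgb2l is related to the beta 2 integrin gene, and Serpinb1a encodes an inhibitor of neutrophil serine proteases.

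Camp, Ngp and Ltf, whose joint share is used below to rank cells, lay on chromosome 9 within 1.20 Mb. In mm10 with GENCODE M21, Camp (ENSMUSG00000038357) occupied chr9:109847379-109849617 on the minus strand, Ngp (ENSMUSG00000032484) chr9:110419747-110423012 on the plus strand and Ltf (ENSMUSG00000032496) chr9:111019271-111042767 on the plus strand. The gaps between neighbours were 0.570 and 0.596 Mb. Lcn2 (ENSMUSG00000026822) lay at chr2:32384633-32388252 (minus), Chil3 at chr3:106147554-106167564 (minus), Cd177 at chr7:24743983-24760311 (minus), Serpinb1a at chr13:32842092-32851185 (minus), Olfm4 at chr14:79984081-80023139 (plus), Ly6g at chr15:75155240-75159126 (plus) and Itgb2l at chr16:96422288-96443619 (minus). All are protein-coding genes. The other 7 members therefore lay on 7 other chromosomes.

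The 250 bases before the RefSeq start (GRCm38.p6) are shown for the 4 members with the most UMIs in the richest neutrophils, since these are the genes whose joint level the results turn on. They span chr9:109849457-109849706 for Camp, chr9:110419558-110419807 for Ngp, chr9:111019042-111019291 for Ltf and chr2:32387740-32387989 for Lcn2, and all are written 5′ to 3′ on the strand of the gene. Capitals mark matches to TTGCNNAA or its reverse complement TTNNGCAA, the letters of a site for C/EBP factors, a family that includes the regulator of specific granule genes C/EBP epsilon.
Camp: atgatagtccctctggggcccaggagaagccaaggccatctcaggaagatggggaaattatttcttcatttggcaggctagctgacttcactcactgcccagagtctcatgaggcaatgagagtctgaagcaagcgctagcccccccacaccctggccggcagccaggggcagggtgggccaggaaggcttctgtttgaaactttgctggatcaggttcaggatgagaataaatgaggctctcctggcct
Ngp: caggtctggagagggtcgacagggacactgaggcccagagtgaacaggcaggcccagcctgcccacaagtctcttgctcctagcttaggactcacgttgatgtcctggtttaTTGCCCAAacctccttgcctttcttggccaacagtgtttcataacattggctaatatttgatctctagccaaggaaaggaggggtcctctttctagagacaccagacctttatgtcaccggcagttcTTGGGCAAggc
Ltf: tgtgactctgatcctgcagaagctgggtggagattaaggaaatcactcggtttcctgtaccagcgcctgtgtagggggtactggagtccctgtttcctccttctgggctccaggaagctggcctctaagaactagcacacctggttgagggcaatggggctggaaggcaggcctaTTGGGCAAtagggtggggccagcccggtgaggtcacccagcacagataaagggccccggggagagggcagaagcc
Lcn2: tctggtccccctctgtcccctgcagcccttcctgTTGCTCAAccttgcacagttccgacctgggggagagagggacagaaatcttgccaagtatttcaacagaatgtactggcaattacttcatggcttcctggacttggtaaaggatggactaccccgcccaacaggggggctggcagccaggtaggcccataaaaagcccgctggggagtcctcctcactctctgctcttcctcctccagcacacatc
The motif was searched on both strands from 250 bases before to 50 bases after the start. Ngp had 2 matches, beginning at positions -138 and -11 from the start, Ltf had 1 at -75 and Lcn2 had 1 at -216. Ly6g had 1 match at -232 in the first of its 2 RefSeq windows. The windows of Camp, Chil3, Cd177, Olfm4 and Itgb2l held none, and Serpinb1a had no entry, so 4 of the 9 members matched to RefSeq held the letters. Of all 32851 mouse promoter windows of this length, from 27025 genes, 3547 (10.8%) did. That share is by window, whereas the members are counted by gene. A match is a description of letters and was not tested for binding.

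Across cell types, Camp, Ngp, Ltf, Ly6g and Itgb2l were close to restricted to neutrophils among the named types of cell, as was Olfm4, which however had a similar level in unnamed or mixed clusters of WT, whereas Chil3 and Serpinb1a were higher in other cells. In neutrophils Camp was at 458 CPM (WT) and 759 CPM (APP/PS1), against 2.49 and 7.16 CPM in Ccr2-high monocyte-like cells and 3.72 and 7.73 CPM in lymphoid-like cells (NK-, T-, B- and plasma-like together). Ngp was at 614 and 989 CPM in neutrophils and at 2.89 and 9.35 CPM in lymphoid-like cells. Ltf was at 190 and 343 CPM in neutrophils and at 2.07 and 4.99 CPM in lymphoid-like cells. Lymphoid-like cells are not known to express these genes, and their low level was of the same order in monocyte-, dendritic-cell- and erythroid-like cells. It was also higher in the APP/PS1 library, with log2 ratios in lymphoid-like cells of 1.06 for Camp (0.25 to 1.93), 1.69 for Ngp (0.83 to 2.65) and 1.27 for Ltf (0.21 to 2.47), on 10 to 58 UMIs a library.

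Lcn2, the member with the most UMIs in all neutrophils, was at 1766 CPM (WT) and 1683 CPM (APP/PS1) in neutrophils and at 36.0 and 37.1 CPM in lymphoid-like cells. It was found in 75.3% and 69.1% of neutrophils (median 2676 and 2848.5 UMIs a cell) and in 10.8% and 9.92% of lymphoid-like cells (median 3793 and 3484 UMIs). With every cell thinned to 1000 UMIs, which left out 3 kept cells of the APP/PS1 library and none of WT, these shares became 56.7% and 50% against 3.40% in both libraries. Ly6g, the target of the antibodies commonly used to recognise mouse neutrophils, was at 180 and 178 CPM in neutrophils and at most 8.69 CPM in any other named type of cell. A Ly6g UMI was found in 28.2% of WT and 26.1% of APP/PS1 neutrophils, against 0.551% and 0.979% of lymphoid-like cells. Itgb2l reached 9.57 and 10.9 CPM in neutrophils and no more than 0.57 CPM in any other named type, and Olfm4 22.3 and 33.4 CPM against no more than 5.88 CPM, which was 1 UMI in plasma-like cells. In the unnamed or mixed clusters Olfm4 was at 17.4 CPM in WT (73 UMIs, 26 of them in 1 cell) and 9.92 CPM in APP/PS1 (33 UMIs).

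Chil3 was highest in Ccr2-high monocyte-like cells, at 852 CPM in WT (836 to 868) and 1930 CPM in APP/PS1 (1901 to 1960), far above its 88.1 and 120 CPM in neutrophils. Thinned to 1000 UMIs, 43.2% and 57.2% of these monocyte-like cells held a Chil3 UMI, against 2.61% and 3.45% of neutrophils and 2.85% and 1.57% of lymphoid-like cells. In WT the share over all neutrophils was thus no higher than that of lymphoid-like cells, although the summed level was (88.1 against 44.4 CPM), and the Chil3 UMIs of neutrophils lay largely in few cells, as given below. In APP/PS1 the share was above that of lymphoid-like cells. Chil3 was also at 183 and 342 CPM in dendritic-cell-like cells. Cd177 was likewise not limited to neutrophils, with 159 and 167 CPM in Ccr2-high monocyte-like cells against 96.0 and 107 CPM in neutrophils, whereas Ace-high monocyte-like cells had 6.94 and 5.87 CPM. Serpinb1a was at 22.0 and 27.3 CPM in neutrophils and higher in basophil-like cells (336 and 700 CPM), Il7r-high T-like cells (229 and 242 CPM) and B-like cells (73.6 and 75.7 CPM). Its near copies Serpinb1b and Serpinb1c had 0 to 0.11 CPM in neutrophils and Chil4, the near copy of Chil3, had 0, but reads shared between copies are not counted to either, so the values of Chil3 and Serpinb1a are uncertain to that extent.

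**Figure D1:**
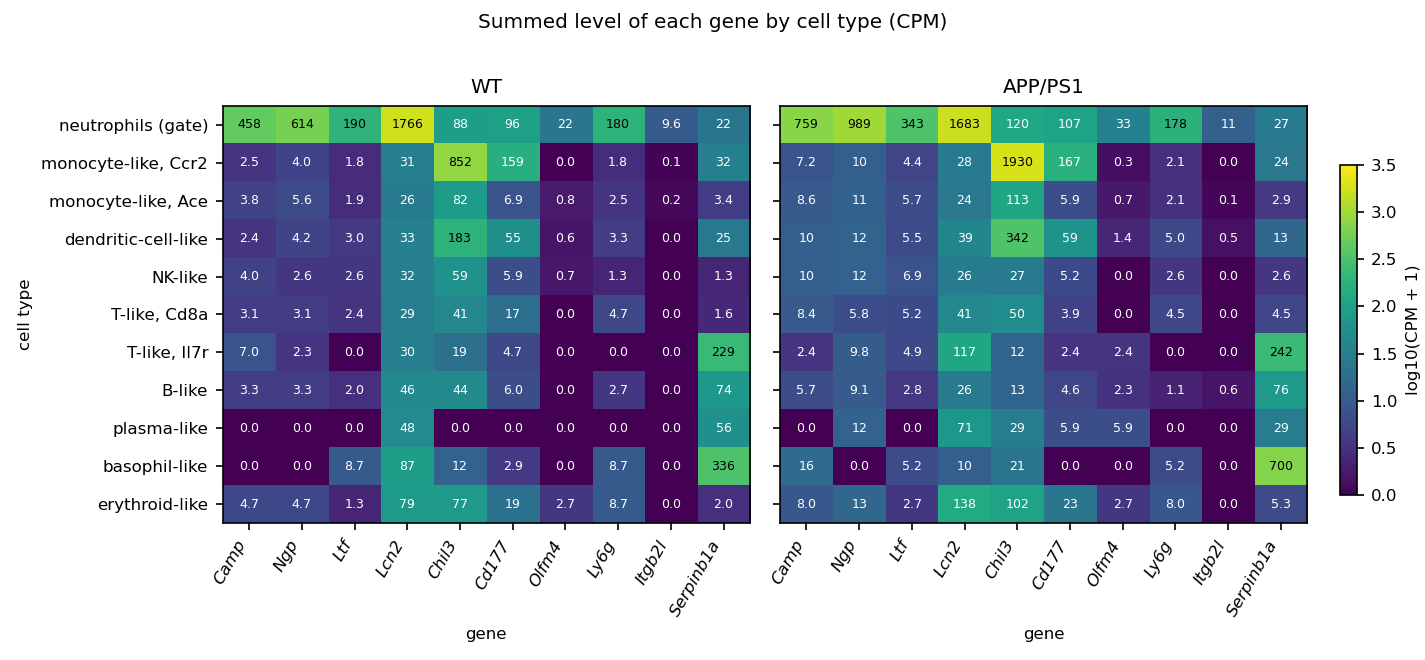
Summed level of each of the 10 genes (columns) in each cell type (rows) of the WT library (left) and the APP/PS1 library (right). The number in a cell is CPM and the colour is log10(CPM + 1). Camp, Ngp, Ltf, Lcn2 and Ly6g peak in the neutrophil row, Chil3 in Ccr2-high monocyte-like cells and Serpinb1a in basophil-like cells.

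Within neutrophils, almost all Camp, Ngp and Ltf UMIs came from a very small number of cells. No UMI of the 3 genes was found in 90.2% of WT and 86.4% of APP/PS1 neutrophils. The 2% of cells with the highest share of the 3 genes (151 WT and 167 APP/PS1 cells) held 97.9% and 97.7% of their UMIs, while holding 3.14% and 4.0% of all neutrophil UMIs. In WT, 17 cells held 50% of the Camp UMIs, 21 cells that of Ngp and 19 cells that of Ltf. In APP/PS1 the numbers were 31, 39 and 37 cells.

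The other 7 members differed in how far their UMIs lay in the cells rich in the rest. To keep a gene's own count from placing the cell, cells were ranked by the other 9 members, and the top 2% were taken. They held 98.9% of Camp UMIs in WT and 97.5% in APP/PS1, 93.5% and 95.4% of Ngp, and 98.5% and 98.0% of Ltf. Itgb2l followed with 66.1% and 71.4%, Serpinb1a with 56.7% and 69.2% and Chil3 with 48.7% and 64.0%. Cd177 had 33.1% and 48.9%, Olfm4 17% and 33.8%, Lcn2 16.7% and 27.9% and Ly6g 11.9% and 19.3%. These are descriptions, since the members were chosen with their joint pattern known. Camp, Ngp and Ltf thus lay at one end, and Lcn2 and Ly6g, which many neutrophils held, at the other. It took 847 WT and 593 APP/PS1 cells to hold 50% of the Lcn2 UMIs. For Olfm4 it took only 57 WT and 32 APP/PS1 cells. Its UMIs thus also lay in few cells, but mostly outside those rich in the other members.

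**Figure D2:**
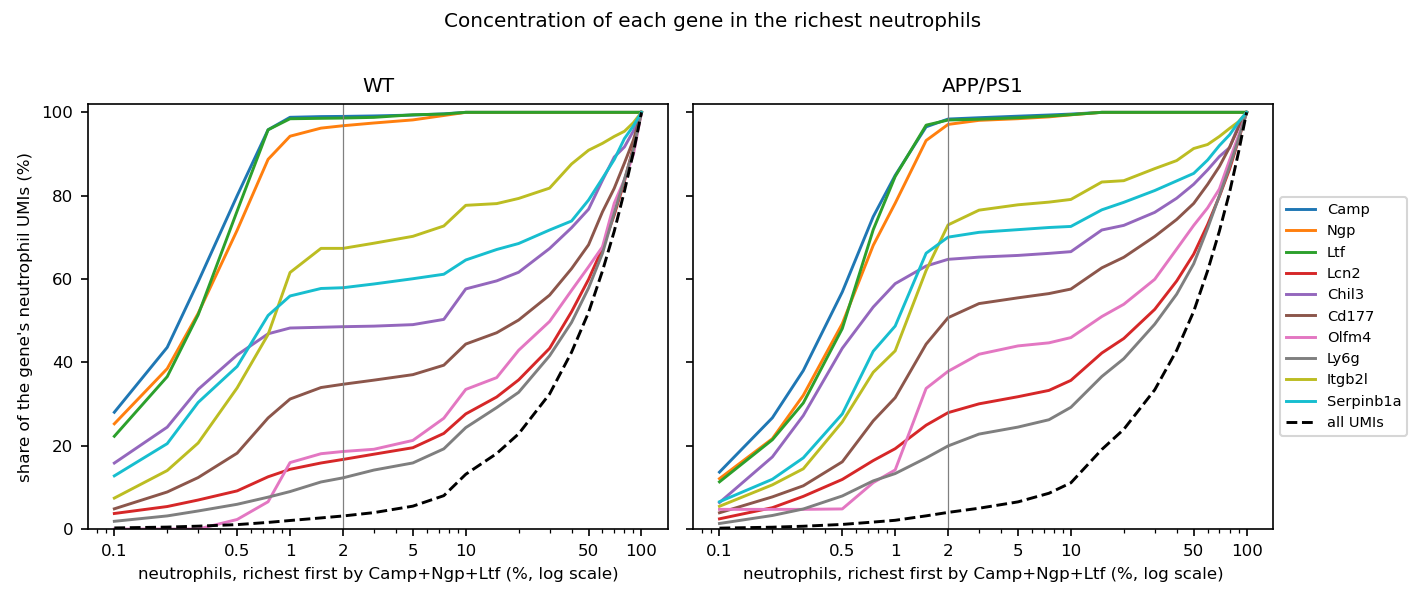
Share of each gene's neutrophil UMIs (vertical axis, %) held by the neutrophils with the highest share of Camp+Ngp+Ltf (horizontal axis, % of cells on a log scale), in WT (left) and APP/PS1 (right); the dashed line is all UMIs and the grey line marks 2% of cells. Cells with no Camp, Ngp or Ltf UMI tie, so their order on the right has no meaning. Camp, Ngp and Ltf come close to 100% within 2% of cells, while Lcn2 and Ly6g stay nearest to the dashed line.

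Neutrophils in which Camp, Ngp and Ltf together made up at least 1% of UMIs are called rich below. This is a range of a per-cell share and not a cell type. There were 67 rich cells in WT, 0.886% of neutrophils (0.688 to 1.12%). The APP/PS1 library had 134, 1.60% (1.34 to 1.89%), and the ratio of shares was 1.81. Few cells lay near the cut. Between 0.5 and 1% there were 5 WT and 17 APP/PS1 cells, and between 1 and 2% there were 7 and 18. At a cut of 0.25% the counts were 85 and 169, and at 5% they were 41 and 75, so the APP/PS1 count was the higher at each of the 5 cuts tried. The ratio of shares was 1.51 when cells of the neutrophil clusters replaced the gate (67 of 7587 and 128 of 9593) and 1.98 with no percentile limits (71 of 8254 and 154 of 9046). With 1 library per genotype the difference could not be set against the spread between mice.

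The rich cells were deeper than other neutrophils and held the common neutrophil markers unevenly. Their median was 6655 UMIs in WT and 7276.5 in APP/PS1, against 2666 and 2834 in the others, and S100a8 and S100a9 made up a median of 32.5% and 30.9% of their UMIs, against 14.8% and 13%. Retnlg and Mmp9 were at least as high as in other neutrophils. Cxcr2, the chemokine receptor of mature neutrophils, was at 367 and 515 CPM in rich cells and 1277 and 1404 CPM in the others, and Csf3r, the receptor for granulocyte colony-stimulating factor, at 343 and 416 CPM against 2138 and 2250 CPM. Hdc, G0s2 and Msrb1 were also lower in rich cells as a share of UMIs. Hdc was at 839 and 653 CPM against 1837 and 1505 CPM, and G0s2 at 873 and 704 CPM against 2280 and 1666 CPM. Msrb1 was at 1309 and 1315 CPM against 3792 and 4078 CPM. Summed, the 9 neutrophil markers made up 34.0% and 32.9% of the UMIs of rich cells, against 17.4% and 16.3% in the others. Most of the sum came from S100a8 and S100a9, which also define the gate.

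Of the rich cells, 64 of 67 in WT and 125 of 134 in APP/PS1 fell in 1 of 20 clusters, although the 10 members were not used to cluster. That cluster held 248 cells, was led by Camp, Ngp, Ltf and Adpgk, and was counted with the neutrophil clusters because all its cells passed the gate. Of the other 12 rich cells, 6 lay in other neutrophil clusters, 2 in the Cd8a T-like, 2 in the plasma-like and 2 in unnamed clusters, those outside neutrophil clusters all from APP/PS1. Scrublet called 0 WT and 6 APP/PS1 rich cells doublets. Markers of other cells moved with this: plasma cell markers (3 of 4 genes found) summed to 697 CPM in APP/PS1 rich cells and 47.2 CPM (2 of 4) in WT, T cell markers to 187 CPM (8 of 9) and 21.5 CPM (2 of 9). Erythroid markers went the other way, at 5247 CPM (6 of 7) in WT and 526 CPM (5 of 7) in APP/PS1. Monocyte markers were at 109 and 95 CPM, and basophil markers at 0 and 2.09 CPM. Their part in the members' values was not tested.

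Single rich cells differed widely in each gene. Camp ranged from 1339 to 62899 CPM over WT rich cells (median 23565) and from 783 to 59301 CPM in APP/PS1 (median 18581), so the ranges overlapped almost fully. Ngp had medians of 31480 and 25564 CPM and Ltf of 10560 and 10824 CPM. Every rich cell of both libraries held Camp, Ngp and Lcn2, and all but 3 APP/PS1 cells held Ltf. Lcn2 had medians of 11614 and 11591 CPM and Cd177 of 1513 and 1318 CPM, with Cd177 found in 67 of 67 and 133 of 134 cells. Chil3 was found in 92.5% and 91.8% of rich cells, Ly6g in 92.5% and 97%, Serpinb1a in 88.1% and 84.3%, and Itgb2l in 85.1% and 67.9%.

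Olfm4 stood apart from the others. It was found in 6 of 67 WT rich cells (8.96%, 3.36 to 18.5%) and 16 of 134 in APP/PS1 (11.9%, 6.98 to 18.7%), with up to 24 UMIs in a WT cell and 59 in an APP/PS1 cell. In other neutrophils it was found in 3.59% and 4.03% of cells. Rich cells were deeper, as given above, and these shares were not matched for depth. Olfm4 was thus at a high level in a few rich cells and listed at 0 in most. By contrast, Lcn2 and Cd177 were within an order of magnitude of their median in nearly all rich cells.

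**Figure D3:**
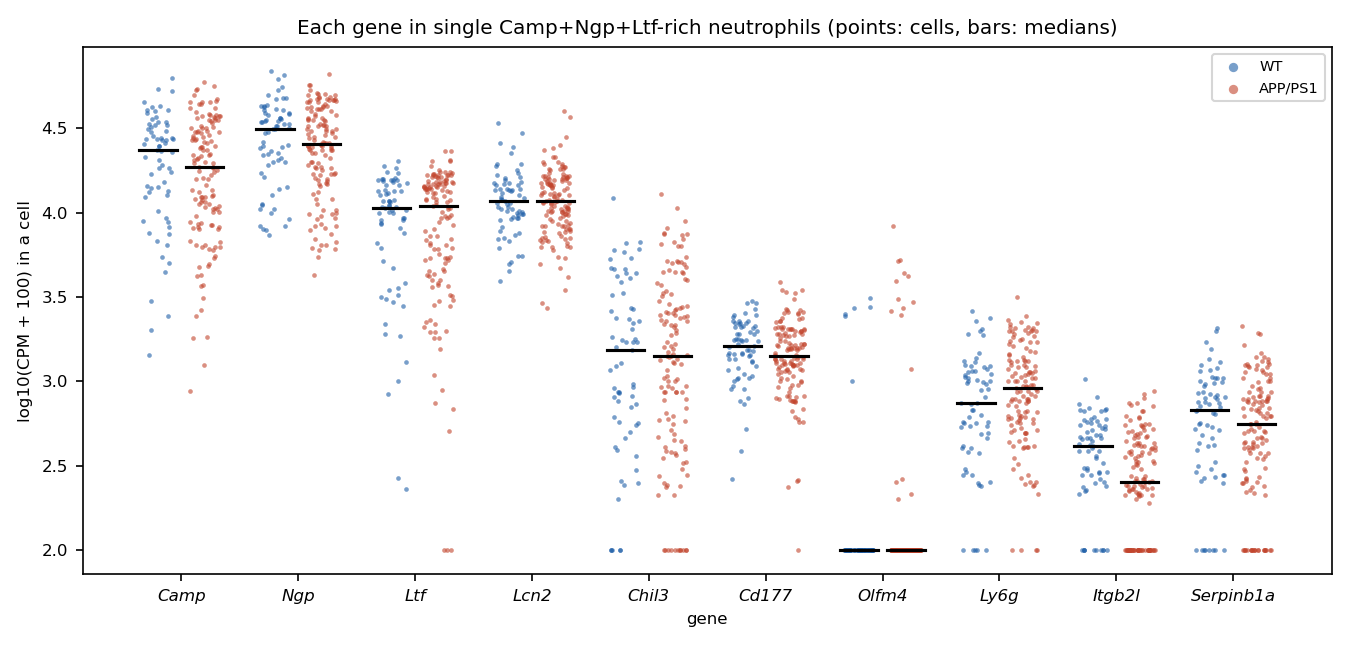
Level of each gene (horizontal axis) in single Camp+Ngp+Ltf-rich neutrophils, as log10(CPM + 100) on the vertical axis, for the 67 WT and the 134 APP/PS1 cells. Points are cells, black bars are medians, and points at 2 hold no UMI of the gene. The cells of both libraries overlap for every gene, and Olfm4 is at 0 in most cells with a separate high group.

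Over cells thinned to 1000 UMIs, the members were higher in cells with more Camp+Ngp+Ltf, but not in step with each other. Bins of 0, 1, 2 to 4, 5 to 9, 10 to 19, 20 to 49 and 50 or more Camp+Ngp+Ltf UMIs held 7203, 246, 34, 9, 7, 18 and 42 WT cells, and 7866, 312, 36, 18, 20, 37 and 78 APP/PS1 cells, so the middle bins were thin (under 20 cells from 5 to 49 in WT and from 5 to 9 in APP/PS1). Lcn2 was already at 1499 CPM (WT) and 1240 CPM (APP/PS1) in cells with none of the 3 genes, at 4060 and 4809 CPM in the bin of 2 to 4, and at 14789 and 15643 CPM in the top bin. Cd177 went from 64.5 and 51.9 CPM to 323 and 532 CPM in the bin of 2 to 4 and reached 1664 and 1575 CPM. Its levels in the bins from 10 upward were close to each other.

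Chil3 was high in the last bins. It was at 47.0 and 42.5 CPM with none of the 3 genes, 816 and 575 CPM in the bin of 20 to 49, and 3171 and 3470 CPM in the bin of 50 or more. Ly6g differed least, from 161 and 143 CPM to 737 and 582 CPM in the bin of 2 to 4 and 953 and 1140 CPM at the top. It did not climb steadily, and was at 527 and 656 CPM in the bin of 20 to 49. Serpinb1a went from 9.75 and 8.29 CPM to 790 and 652 CPM and Itgb2l from 2.94 and 2.67 CPM to 299 and 226 CPM. In WT, Itgb2l was highest in the bin of 10 to 19, at 451 CPM. Olfm4 followed no order, peaking at 1221 CPM in the WT bin of 10 to 19, which was 7 cells, and at 749 CPM in the APP/PS1 bin of 20 to 49. It was at 43.2 and 187 CPM in the top bin. Among the 3 genes that define the bins, the bin of 2 to 4 was mostly Ngp (1977 and 2055 CPM, against 165 and 458 CPM of Camp and 37.6 and 155 CPM of Ltf).

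**Figure D4:**
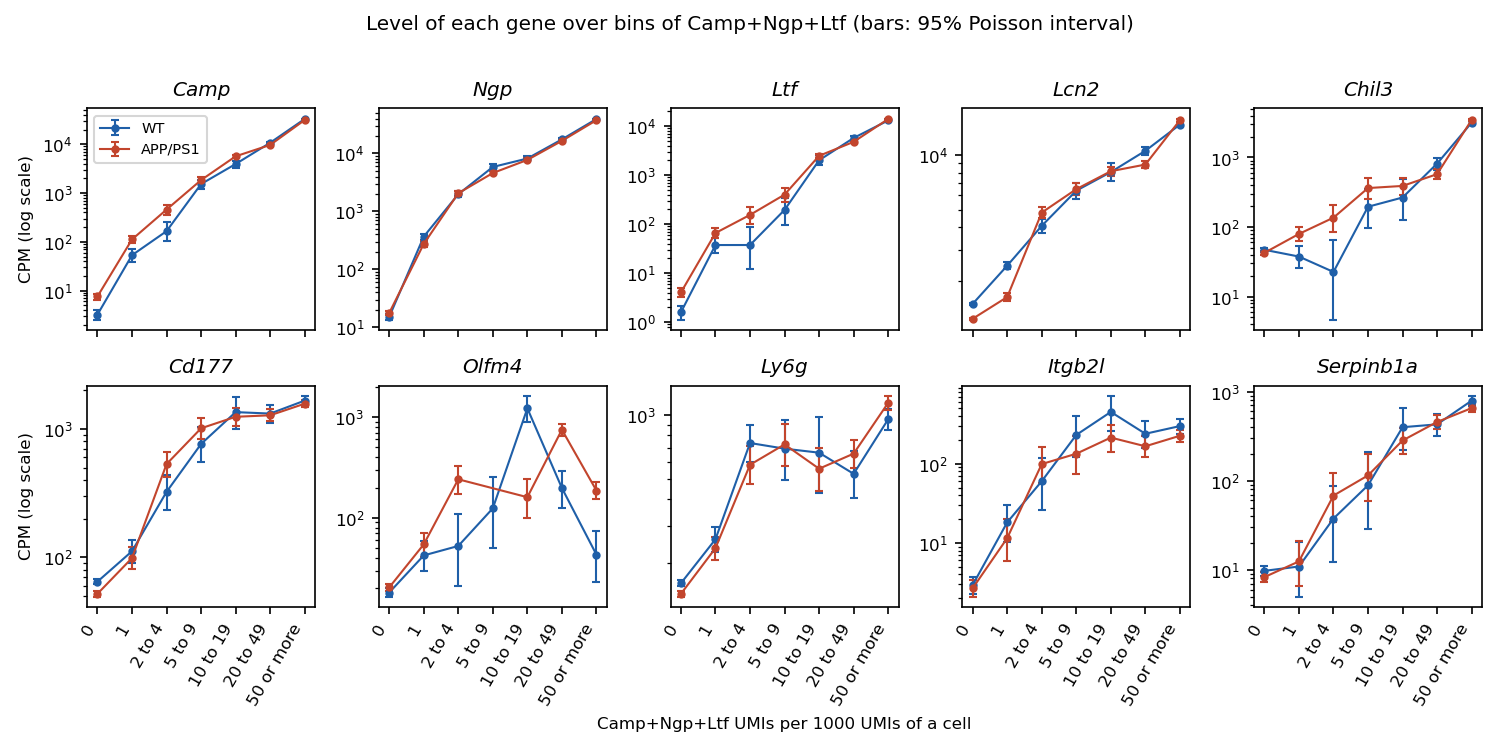
Summed level of each gene (CPM, log scale) over bins of thinned neutrophils with increasing Camp+Ngp+Ltf UMIs per 1000 UMIs, for WT and APP/PS1; bars are 95% Poisson intervals, and Olfm4 in the APP/PS1 bin of 5 to 9, which was 0, is left out so that its line joins the neighbouring bins. Lcn2 climbs over all bins, Cd177 levels off, Chil3 is high mainly in the last bin and Olfm4 has no steady order.

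Among rich cells, thinned to 1000 UMIs, the 3 chromosome 9 genes and Chil3 were the most closely related of the members in WT, and in APP/PS1 Lcn2 with Chil3 (0.46) lay among their values. Over the 67 WT and 134 APP/PS1 cells, Pearson's r of log2(CPM + 1) was 0.65 and 0.60 for Camp with Ngp, 0.60 and 0.60 for Camp with Ltf, and 0.55 and 0.52 for Ngp with Ltf. Chil3 had values of the same order, with 0.57 and 0.54 for Ngp, 0.49 and 0.45 for Ltf and 0.44 and 0.48 for Camp. Cd177 had 0.06 to 0.16 with each of the 3 genes in either library. Olfm4 had -0.20, -0.39 and -0.38 with Camp, Ngp and Ltf in WT and -0.02, -0.13 and 0.03 in APP/PS1, on few cells that held it. The cells share a library, a fixed total of UMIs and the cut on the 3 genes, so these values are descriptions.

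Against the other neutrophils, rich cells differed in all 10 members, in part by construction. The cut used Camp, Ngp and Ltf, and the other members are listed with earlier results known. Serpinb1a was 64.7 times as high in WT rich cells as in other WT neutrophils and 58.8 times in APP/PS1 (log2 6.02 and 5.88), Itgb2l 70.6 and 50.3 times (6.14 and 5.65), Chil3 48.8 and 49.9 times (5.61 and 5.64) and Cd177 22.3 and 24.3 times (4.48 and 4.60). Olfm4 was 10.1 and 14.6 times as high, Lcn2 8.44 and 10.0 times and Ly6g 4.80 and 6.09 times. Of 7367 genes with at least 100 UMIs in the neutrophils of each library, 784 (10.6%) were over 0.5 log2 higher in rich cells in both libraries and 1977 (26.8%) lower. Ranked by the lower of the 2 library ratios, the members outside the cut stood at places 4 (Serpinb1a), 5 (Itgb2l), 6 (Chil3), 13 (Cd177), 28 (Olfm4), 32 (Lcn2) and 81 (Ly6g). Levels are shares of a fixed total. The 10 members took 84211 CPM (WT) and 78313 CPM (APP/PS1) of it in rich cells, against 1928 and 1669 CPM in others. S100a8 and S100a9 also took more. How far this lowered the ratios of other genes was not tested, and no other scaling was tried for this comparison.

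The other lists of immature neutrophil and granule genes were compared in the same way, each list by its counts and with no test between lists. These lists too were chosen with earlier results of these data known, so their values are descriptions. Of 10 further genes of immature neutrophils, 8 had at least 100 UMIs in the neutrophils of each library, and Fcnb and Gfi1 did not. All 8 were over 0.5 log2 higher in rich cells of both libraries, with a median log2 ratio of 2.31 against -0.28 over all genes tested. They included Cebpe, the factor that drives specific granule genes (255 and 240 CPM in rich cells against 14.4 and 17.5 CPM in others), Ifitm6, an interferon-induced membrane protein gene (4284 and 3322 against 377 and 258 CPM), and Anxa1, which encodes annexin A1 (4070 and 3250 against 725 and 820 CPM). Of the 11 other specific granule genes, 7 of 10 tested were higher, with a median of 1.07. Cybb, the heavy chain of the phagocyte oxidase, was at 2527 and 2312 CPM against 299 and 164 CPM, and Mmp8, neutrophil collagenase, at 2703 and 3276 CPM against 493 and 458 CPM.

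Azurophil granule genes went both ways. Mpo, Elane and Ctsg, which encode myeloperoxidase, neutrophil elastase and cathepsin G, had 0 UMIs in the rich cells of both libraries. The floor of 3 counts, to which lower counts were raised, was 6.44 CPM (WT) and 3.13 CPM (APP/PS1) there. Of 4 tested genes of this list 1 was higher (Cd63, a granule membrane tetraspanin) and 1 lower (Ctsc, which activates granule proteases), with a median of -0.59. The sum of the list was nevertheless higher in rich cells, at 348 CPM (296 to 405) against 203 CPM in other neutrophils of WT and 278 CPM (245 to 313) against 176 CPM in APP/PS1, and Cd63 gave 150 of its 162 and 248 of its 266 UMIs in rich cells. Of the gelatinase and secretory granule list, 3 of 8 were higher (Mmp9, Itgam and Fpr2) and 2 lower (Slpi and Ptafr). Of 6 cell division genes, H2afz was higher and Pcna, Tuba1b and Tubb5 lower, and Top2a, Cdk1 and Birc5 had 0 UMIs in rich cells. Among 50 genes of a maturation list taken from the study, 42 were lower and 2 higher (Mmp8 and Mmp9). Their median was -1.53, against -0.28 over all genes tested. Il1b, the inflammatory cytokine interleukin 1 beta, was at 1133 and 1114 CPM in rich cells against 13262 and 13915 CPM in the others. The list comes from the study of these same libraries and is not independent evidence of its direction.

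Outside the lists, the 10 genes highest in rich cells were Adpgk, Olfml2b, Acvrl1, Abca13, Zmpste24, Golim4, 1700047M11Rik, Anxa3, Cd55 and Inhba. UMIs of rich cells counted toward the minimum for this ranking, so a gene could enter it through the cells in which it was high. Olfml2b, for example, had 49 WT and 77 APP/PS1 UMIs in rich cells and was at 2.38 and 1.82 CPM in others. A minimum on other neutrophils alone was not tested. Adpgk, an ADP-dependent glucokinase, was at 695 and 696 CPM in rich cells and at 15.6 and 11.1 CPM in others, a log2 ratio of 5.48 and 5.97. Anxa3, annexin A3 of specific granules, was at 249 and 255 CPM against 12.1 and 12.1 CPM. The 5 lowest were Steap4, a metalloreductase (log2 -4.02 and -4.91), Jaml, an adhesion molecule (-3.75 and -3.78), H2-Q10, Sirpb1b and Prr5l. Steap4 had 3 UMIs in WT and 2 in APP/PS1 rich cells, so its APP/PS1 ratio is that of the floor of 3 counts.

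Between the genotypes, the summed level of the members in all neutrophils differed mainly through Camp, Ngp and Ltf. Camp was 1.66 times as high in APP/PS1 (log2 0.73, 0.70 to 0.76), Ngp 1.61 times (0.69, 0.66 to 0.72) and Ltf 1.81 times (0.85, 0.80 to 0.90). Together they went from 1262 to 2091 CPM (log2 0.73, 0.71 to 0.75), and all 10 members from 3445 to 4251 CPM (log2 0.30, 0.29 to 0.32). Olfm4 had a log2 ratio of 0.58 (0.43 to 0.74), Chil3 0.45 (0.37 to 0.53), Serpinb1a 0.31 (0.16 to 0.47), Itgb2l 0.19 (-0.06 to 0.44) and Cd177 0.16 (0.08 to 0.23). Lcn2 had -0.07 (-0.09 to -0.05) and Ly6g -0.02 (-0.08 to 0.04).

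Over 0.5 log2 apart were 4 of the 10 members, all higher in APP/PS1. Of 8907 genes with at least 100 UMIs in neutrophils, 13.1% were that far apart in either direction, 3.21% higher and 9.87% lower in APP/PS1, with a median of -0.04. When cells of the neutrophil clusters replaced the gate, the ratio of the 3 genes was 0.44 in place of 0.73, and 2 members were past 0.5: Ltf (0.55), which was past it under the gate as well, and Chil3 (0.54), which was not. Camp (0.44), Ngp (0.40) and Olfm4 (0.47) were then under it. With only the 8.36% of gated WT cells and 4.65% of gated APP/PS1 cells outside these clusters left out, the ratio of the 3 genes was 0.54. The clusters also brought in 660 WT and 1614 APP/PS1 cells below the gate. The cause of these shifts was not tested. With no percentile limits the ratio of the 3 genes was 1.01. With rich cells left out, that of all 10 members was -0.21.

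Within rich cells the genotypes were close. Camp was at 24384 CPM (WT) and 21909 CPM (APP/PS1) (log2 -0.15, -0.19 to -0.12), Ngp at 30824 and 27800 CPM (-0.15), Ltf at 10120 and 9956 CPM (-0.02), Lcn2 at 13108 and 12910 CPM (-0.02), Chil3 at 2287 and 2270 CPM (-0.01) and Cd177 at 1536 and 1457 CPM (-0.08). Past 0.5 log2 were Olfm4, at 193 and 335 CPM (0.80, 0.45 to 1.15), and Itgb2l, at 296 and 207 CPM (-0.52, -0.84 to -0.19), so 2 of 10 members against 9.83% of 1516 genes, 5.15% of them higher and 4.68% lower in APP/PS1. The Olfm4 value rested on 6 and 16 cells. The higher sums of Camp, Ngp and Ltf in APP/PS1 neutrophils thus went with more rich cells, which held 1.84% of neutrophil UMIs in WT and 3.37% in APP/PS1, and not with a higher level in rich cells. The cut sets the lower end of that level.

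In neutrophils outside the rich range, 2 of 10 members were past 0.5 log2, both higher in APP/PS1, against 13.3% of 8856 genes, 3.13% of them higher and 10.2% lower. Camp was at 8.54 CPM (WT) and 22.0 CPM (APP/PS1) (log2 1.37, 1.14 to 1.60) and Ltf at 3.34 and 7.71 CPM (1.21, 0.83 to 1.59). These neutrophils include cells just under the cut, 5 in WT and 17 in APP/PS1 between 0.5 and 1% of UMIs. In neutrophils with none of the 3 genes after thinning, Camp was at 3.23 and 7.60 CPM and Ltf at 1.60 and 4.05 CPM. The part of cells near the cut in these ratios was not tested. The low level of these genes in lymphoid-like cells had log2 ratios of 1.06 and 1.27, as given above, and its part in the values of other neutrophils was not tested. Ngp was at 46.3 and 54.6 CPM (0.24, 0.12 to 0.35). Lcn2 was lower, at 1553 and 1292 CPM (-0.27, -0.29 to -0.24), and found in 75% and 68.6% of these cells, and Cd177 was at 68.9 and 59.9 CPM (-0.20) and Ly6g at 168 and 152 CPM (-0.15). In APP/PS1 the near-equal Lcn2 sums of all neutrophils thus held a lower summed level outside rich cells and a larger share from rich cells. That share was 25.8% of Lcn2 UMIs against 13.7% in WT. The neutrophil cluster led by Retnlg, with Ly6g and Lcn2 among its leading genes, held 2632 gated WT and 1799 gated APP/PS1 cells. Its part in the lower sums was not tested. Chil3, Itgb2l and Serpinb1a had intervals that included 0.

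**Figure D5:**
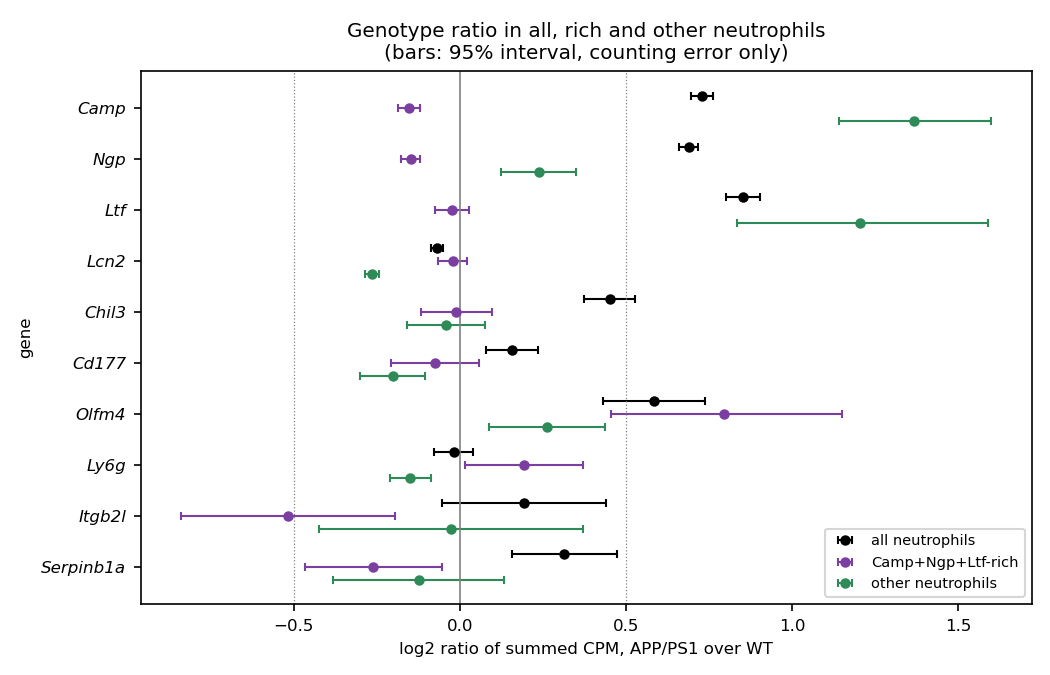
Log2 ratio of summed CPM, APP/PS1 over WT, for each gene in all neutrophils, in Camp+Ngp+Ltf-rich neutrophils and in the other neutrophils; bars are 95% intervals for counting error only, and dotted lines mark 0.5 log2 in either direction. Camp, Ngp and Ltf are right of 0.5 in all neutrophils and at or left of 0 in rich cells.

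In Ccr2-high monocyte-like cells, Chil3 had a log2 ratio of 1.18 (1.15 to 1.22), where 5.09% of 8538 genes were over 0.5 log2 apart, 1.8% higher in APP/PS1 and 3.29% lower. Cd177 there had 0.07 (-0.03 to 0.17). Chil3 was thus 2.27 times as high in APP/PS1 in these cells and 1.37 times in neutrophils, where rich cells held 47.8% of its UMIs in WT and 63.5% in APP/PS1. In Ace-high monocyte-like cells its log2 ratio was 0.47 (0.33 to 0.61).

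The related lists are given for the same comparison of genotypes in all neutrophils. None of 8 immature neutrophil genes was past 0.5 log2, with a median of 0.06. Of 11 other specific granule genes, Ncf4, a cytosolic subunit of the phagocyte oxidase, was higher (0.51), and Cybb (-0.52) and Orm1 (-0.51) were lower, with a median of 0.08. Of 4 azurophil genes Ctsc (-1.0) and Prtn3 (-0.94) were lower, each further from 0 than the ratio of any member, with a median of -0.47 over the 4. Prtn3 was also among the leading genes of the Ccr2-high monocyte-like cluster. In gated neutrophils monocyte markers summed to 611 CPM (WT) and 383 CPM (APP/PS1), and dendritic cell markers to 263 and 141 CPM. T cell, NK cell and platelet markers were higher in APP/PS1. The part of such cells in these ratios was not tested. Of 8 gelatinase and secretory granule genes none was past the fold. Of 7 cell division genes Tuba1b was lower (-0.75). Of the 50 maturation genes, Ifitm1 and Rdh12 were lower and none higher, with a median of 0.06.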

How the data were processed

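Both libraries were prepared with the 10x Genomics 3′ v3.0 chemistry, and the authors processed the reads with Cell Ranger 5.0.0 at its default settings, aligning to mm10. The deposited counts are whole numbers of UMIs for each gene in each barcode called a cell, neither normalized nor filtered. The members and lists were chosen with earlier results of these data known.

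The deposited counts were read in Python 3.11.15 with scipy 1.17.1 and scanpy 1.11.5. Cells were kept within the 5th to 95th percentile of genes and of UMIs of their own library and with at most 10% mitochondrial UMIs, and genes in at least 3 cells were used. Cells were normalized to 10000 UMIs and clustered with Leiden at a resolution of 0.5 on 1991 variable genes, the members left out, with 15 principal components and 20 neighbours. The 20 clusters were named by marker genes. The neutrophil clusters included clusters led by platelet or interferon response genes, in which S100a8 and S100a9 averaged 10.5% to 12.9% of UMIs. Other clusters with mixed markers stayed unnamed. Neutrophils were taken by the S100a8 and S100a9 gate. Cells called doublets by Scrublet at an expected rate of 8% stayed in. The threshold it set by itself marked no APP/PS1 cell (0.725), and the one set for WT (0.210) was therefore applied to both libraries, and 531 WT and 475 APP/PS1 neutrophils were called.

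UMIs were summed per library and cell group. CPM had exact Poisson intervals, shares Clopper-Pearson intervals and ratios exact conditional binomial intervals. Simulated Poisson counts, drawn from the model that the intervals assume, were made for APP/PS1 over WT in all neutrophils. The true ratio lay within 95.4% of the intervals of 8907 genes. This was a check of the calculation, and it does not cover the uneven spread of UMIs over single cells. Ratios of rich over other neutrophils used a floor of 3 counts, to which lower counts were raised. Genes were named if they were members, list genes over 0.5 log2 apart, or among the 10 highest and 5 lowest in rich over other neutrophils with at least 100 UMIs in the neutrophils of each library. UMIs of rich cells counted toward that minimum. Alternatives were other cell filters, gates and neutrophil definitions, doublet removal, TMM library sizes (edgeR 4.0.16), a denominator without abundant gene classes, the mean over cells, other cuts and thinning. After the data were seen, the ratios were also computed without rich cells. Gene positions were read from GENCODE M21 (mm10).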

Additional observations from a re-analysis of the deposited data

Results flagged for a closer look

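Some members were over 0.5 log2 higher in APP/PS1 in some named cell types and over 0.5 log2 lower in others, with intervals that excluded 0. Members past it in a single direction are not listed. Among them were Camp at 1.52 in Ccr2-high monocyte-like cells and Cd177 at -2.15 in Cd8a T-like cells. Each difference rests on 1 library per genotype and the difference between cell types was not tested. Chil3 had a log2 ratio of APP/PS1 over WT of 1.18 in Ccr2-high monocyte-like cells and 0.90 in dendritic-cell-like cells (615 and 751 UMIs), but -1.11 in NK-like cells (89 and 63 UMIs) and -1.82 in B-like cells (66 and 22 UMIs). In the last, 1 WT cell held 20 of the 66 UMIs.

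Lcn2 had 1.95 in Il7r-high T-like cells (13 and 48 UMIs, 14 of the latter in 1 cell), 0.80 in erythroid-like cells (119 and 104 UMIs), -0.82 in B-like cells (69 and 46 UMIs) and -3.06 in basophil-like cells (30 and 2 UMIs, 20 of the former in 1 cell). Serpinb1a had 1.06 in basophil-like cells (116 and 134 UMIs, 49 of the latter in 1 of 40 cells) and -0.92 in dendritic-cell-like cells (84 and 29 UMIs).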

How the results depend on the processing

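The log2 ratio of Camp, Ngp and Ltf together (0.73) kept its direction under all 11 alternatives. It was 1.01 with no percentile limits, 0.60 with called doublets removed, 0.79 with the gate at 10%, 0.44 with neutrophil clusters in place of the gate, 0.54 with gated cells within those clusters, 0.78 with TMM library sizes, 0.69 without abundant gene classes in the denominator and 0.53 with rich cells left out. In the same order the ratio of all 10 members (0.30) was 0.42, 0.23, 0.38, 0.094, 0.19, 0.35, 0.26 and -0.21, and as a mean over cells 0.10, so its sign turned without rich cells. The number of members over 0.5 log2 apart (4) was 2 with neutrophil clusters in place of the gate and 2 with rich cells left out. TMM shifted the median of all genes from -0.04 to 0.00, and the share of calls that were higher in APP/PS1 went from 24.5% to 33.2%.

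With the gate at 10% the share of rich cells was 1.16% (WT) and 2.30% (APP/PS1), and 1.33% in APP/PS1 with neutrophil clusters in place of the gate. It was higher in APP/PS1 under all alternatives. The share of Camp, Ngp and Ltf UMIs in the richest 2% of cells was 97.1% (WT) and 97.2% (APP/PS1) with no percentile limits, 98.1% and 97.9% with called doublets removed, 98.2% and 98.0% with neutrophil clusters in place of the gate, 98.1% and 97.9% with gated cells within them, and 95.5% and 95.8% with cells thinned. In APP/PS1 it was 97.9% with the gate at 3% and 93.6% at 10%. The richest 1% held 96.5% and 81.7% and the richest 5% held 98.8% and 98.7%. The cause of these shifts was not tested beyond the construction of each alternative.

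No paired analysis was possible because there was 1 library per genotype, and for the same reason no fit without a replicate exists. Intervals cover counting error only, so the spread between mice is unknown. Members such as Itgb2l, Olfm4 and Serpinb1a had under 1000 UMIs in each library's neutrophils, and their counting intervals were the widest. The narrow intervals of Camp, Ngp and Ltf do not cover the small number of cells that held most of their UMIs. Over the alternatives the log2 ratio of Camp went from 0.44 to 1.37, of Ngp from 0.24 to 0.92 and of Ltf from 0.55 to 1.21. That of Itgb2l went from -0.03 to 0.26, of Olfm4 from 0.26 to 0.70 and of Serpinb1a from -0.12 to 0.46. Reads shared by near copies and RNA free in the suspension were not separated.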

Other observations

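Cells of the neutrophil clusters that fell below the S100a8 and S100a9 gate made up 4.53% of kept WT cells (660) and 10.6% of kept APP/PS1 cells (1614). Lcn2 was at 391 CPM in both libraries there, against 1766 and 1683 CPM in gated neutrophils, and Ly6g at 25.2 and 34.2 CPM, against 180 and 178 CPM. Camp was at 2.96 CPM on 4 UMIs in WT and 16.1 CPM on 61 UMIs in APP/PS1, and Ngp at 7.41 and 18.4 CPM. None of these cells had Camp, Ngp and Ltf at 1% of UMIs. The ungated cells of these clusters thus had lower summed levels of Lcn2 and Ly6g than the gated neutrophils. The gate did not use Lcn2 or Ly6g. However, S100a8, S100a9, Ly6g and Lcn2 were all among the leading genes of the neutrophil cluster led by Retnlg. The lower levels are therefore not evidence independent of the gate. The gated neutrophils include cells outside these clusters.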
